A study of Mus musculus with 14 samples.

Results

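Oncofetal genes of the liver, expressed in the fetal organ, low in the adult one and often high again in liver cancer, were followed across 14 mouse arrays. The 8 genes were Afp, Igf2, H19, Dlk1, Gpc3, Igf2bp3, Hmga2 and Tbx3, chosen by name. On the array, which reports each gene through one or more probe sets, 19 of 22690 probe sets carried one of these names. Each gene was read at its brightest probe set by the mean of the 14 arrays, and its others served as a check. The single probe set of H19 is also annotated to the microRNA gene Mir675, which lies within H19, so 7 of the 8 were tested as genes, among 12393 in all.

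The cells were hepatoblasts, the bipotent progenitors of the fetal liver, taken from wild-type mice at embryonic day 14 and immortalised by plating at clonal density. Each of 7 groups held 2 cultures with 1 array each, and the introduced constructs were under a doxycycline-inducible system. On uncoated plates, the condition the labels use for hepatocyte differentiation, with up to 5 days of culture, there were cells with the isocitrate dehydrogenase mutant IDH1 R132C and cells with empty vector. On plates coated with rat tail collagen there were cells with IDH1 R132C, wild-type IDH1, the mutant IDH2 R172K, wild-type IDH2 and empty vector. All groups shared a medium with 10% fetal bovine serum, epidermal growth factor at 50 ng/mL, insulin at 10 µg/mL and insulin-like growth factor II, the product of Igf2, at 30 ng/mL. Doxycycline at 25 ng/mL was added in the IDH1 experiments. The labels do not give the number of clones behind a line, the species of the introduced sequences or which vector cultures received doxycycline. Immortalised cells of 1 embryonic stage stand for hepatoblasts here, and no adult liver was measured beside them.

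Afp, alpha-fetoprotein, is the main serum protein of the fetal liver and is shut down after birth. Igf2 and H19 are neighbouring imprinted genes read from opposite parental chromosomes, one a fetal growth factor and the other a long noncoding RNA, and Dlk1 and Gpc3 encode surface proteins used to mark fetal liver cells. Igf2bp3 is an RNA-binding protein of fetal tissues, Hmga2 an architectural chromatin protein whose messenger RNA is a classic target of let-7 microRNAs, and Tbx3 a T-box repressor needed for hepatoblast growth in mice.

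The promoters of the 3 members whose level differed between plates are shown because they differ in kind. RefSeq's table for GRCm38.p6 held the promoters of 6 members (not those of H19 and Tbx3), each as 250 bases before to 50 bases after the annotated start. The Afp window (chr5:90490464-90490763, plus strand) has 3 CpG dinucleotides and 40.0% G and C. The Igf2bp3 window (chr6:49214905-49215204, minus strand) has 25 CpG and 60.3% G and C, and the Hmga2 window (chr10:120476420-120476719, minus strand) has 12 CpG and 57.7%. Over all 32851 promoters of the table the median is 7 CpG, with quartiles of 3 and 20. Capitals mark the letters of 3 motifs, chosen after the sequences had been read.
Afp: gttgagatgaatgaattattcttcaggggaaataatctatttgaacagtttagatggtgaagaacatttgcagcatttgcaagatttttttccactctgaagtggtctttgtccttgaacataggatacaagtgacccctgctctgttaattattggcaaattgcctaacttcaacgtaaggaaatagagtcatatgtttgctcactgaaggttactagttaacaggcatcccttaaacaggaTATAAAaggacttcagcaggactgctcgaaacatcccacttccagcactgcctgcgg
Igf2bp3: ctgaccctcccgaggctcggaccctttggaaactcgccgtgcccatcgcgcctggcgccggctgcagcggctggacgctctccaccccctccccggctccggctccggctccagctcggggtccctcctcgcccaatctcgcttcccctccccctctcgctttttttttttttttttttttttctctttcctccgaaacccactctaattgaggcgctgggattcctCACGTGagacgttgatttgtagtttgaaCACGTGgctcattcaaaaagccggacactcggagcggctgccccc
Hmga2: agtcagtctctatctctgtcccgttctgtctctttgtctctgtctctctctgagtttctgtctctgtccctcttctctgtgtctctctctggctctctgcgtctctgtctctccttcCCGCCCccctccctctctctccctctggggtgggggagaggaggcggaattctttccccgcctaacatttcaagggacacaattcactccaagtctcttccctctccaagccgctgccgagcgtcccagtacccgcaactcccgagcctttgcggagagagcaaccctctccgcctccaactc
The Afp promoter has TATAAA, the letters of a TATA box, directly before the annotated start. TATAAA was searched on the gene's strand and occurs in 8.32% of all promoters in the table. The Igf2bp3 promoter has the E-box CACGTG on both sides of the start, and this palindrome occurs in 7.15% of all promoters. The Hmga2 promoter has a GC box, searched as GGGCGG on both strands and found here as CCGCCC at position -133, and 35.7% of all promoters hold it. No overlap between the marked motifs occurs in these windows, and a match of letters is no evidence of a bound factor.

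Afp, Igf2bp3, Hmga2 and Tbx3 were well above background in all 7 groups, and the other 4 were near or under it. Values are log2 of the deposited array intensity, which serves to compare groups for one probe set and not one gene with another. The background level was taken as log2 4.81, the highest of the 14 arrays' lower quartiles. Over the 14 arrays Afp ranged from 9.09 to 11.63, Igf2bp3 from 10.04 to 11.02, Hmga2 from 12.83 to 13.40 and Tbx3 from 8.24 to 9.39. Afp was the single member whose group means spanned more than log2 1, with a range of 2.28.

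**Figure D1:**
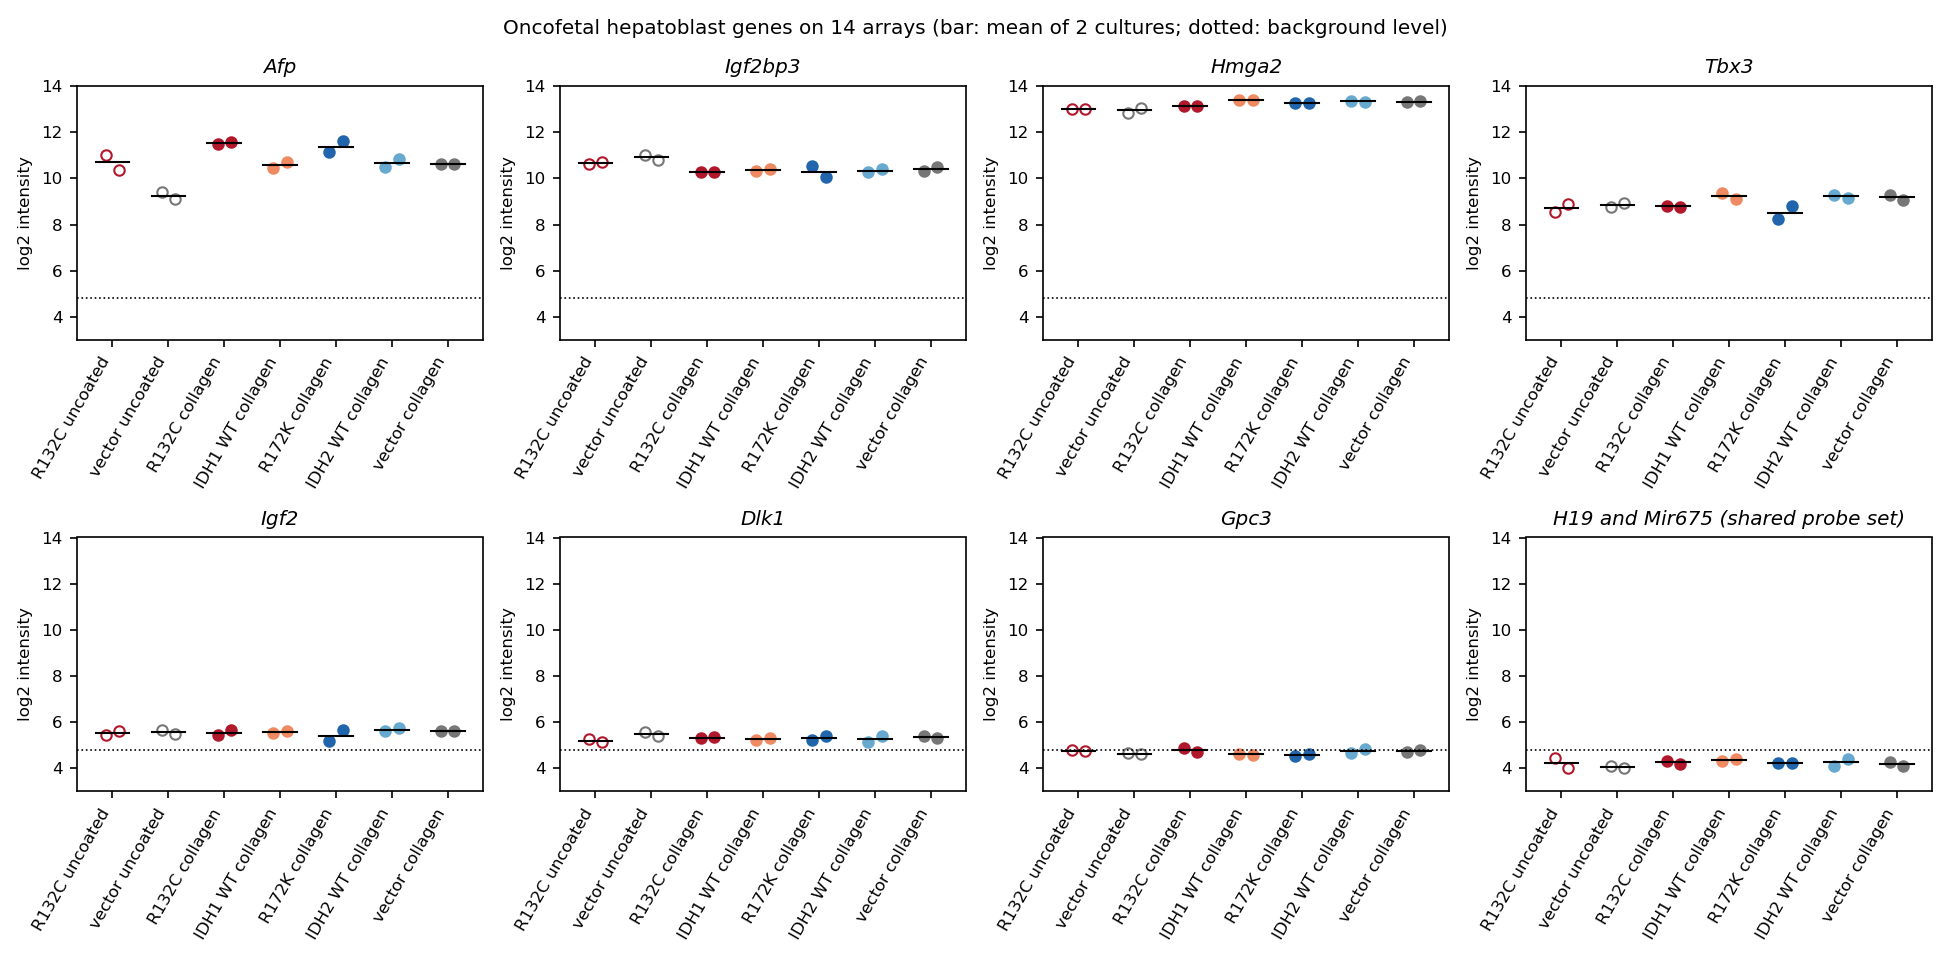
Log2 intensity of the 8 genes on each of the 14 arrays, 1 point per culture, in the 7 groups, with bars at the group means and a dotted line at the background level of 4.81. Afp, Igf2bp3, Hmga2 and Tbx3 lie far above the line, Igf2 and Dlk1 lie just above it, and Gpc3 and the probe set shared by H19 and Mir675 lie at or under it.

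Igf2 and H19 gave little signal. Igf2, the ligand that was also supplied in the medium, had group means between 5.41 in R172K cells and 5.67 in wild-type IDH2 cells. Its 14 arrays ran from 5.17 to 5.74, and neighbouring groups in the order of the means overlapped throughout. The second Igf2 probe set had group means of 3.51 to 3.63, under background. The probe set for H19 and Mir675 had group means of 4.07 to 4.37, under background in all 7 groups, and was called in no comparison when tested as a probe set. A low signal on these arrays does not show that either gene is absent or steady.

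Dlk1 and Gpc3, both surface markers of fetal liver, were also low. Dlk1, whose product is shed and is used to sort hepatoblasts, had group means of 5.20 in R132C cells on uncoated plates to 5.50 in vector cells on uncoated plates. On uncoated plates it read 5.26 and 5.14 in R132C cells and 5.59 and 5.40 in vector cells. Those groups did not overlap, but the difference of -0.30 (SE 0.125) had an adjusted p of 0.312 (limma, Benjamini-Hochberg). Gpc3, a heparan sulphate proteoglycan of the cell surface, had group means of 4.58 to 4.79, at or under background in every group.

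As a check of the cell type, 9 of 10 hepatoblast and liver epithelial markers were measured and all 9 were above background in all 7 groups. Afp and Dlk1 among them are members under study, so they are no separate check. Group means of Dlk1 (5.20 to 5.50) and Met (5.70 to 5.97) lay not far above background. Of 7 hepatocyte markers, 2 (Ttr and Apoa1) were above background in every group and Cps1, Tat and G6pc in none. Their summed level ran from 8.71 to 8.76 on the R132C arrays and from 9.61 to 9.99 on the vector arrays of uncoated plates, and from 7.58 to 8.0 on collagen. Mesenchymal genes had 2 of 9 above background in every group and a summed level of 8.01 to 8.20, with Col3a1, Lum, Thy1 and Dcn under background in all groups. Of 4 measured blood genes 1 was above background in every group, and their summed level ran from 7.20 to 7.60 on the vector arrays of uncoated plates, 6.89 to 7.72 on the R172K arrays and 6.66 to 7.20 on all others. Ptprc, the pan-leukocyte marker CD45, averaged 5.35 in R132C and 6.20 in vector cells on uncoated plates and was under background in all collagen groups. Cd68, a macrophage marker, averaged 6.71 in R172K cells and 5.46 to 5.87 in the other groups, and Hba-a1 was under background in all. Of 5 endothelial genes 1 was above background in every group. Array medians ran from 135 to 148 in intensity, with the lowest on the first R172K array. Replicate arrays correlated at 0.994 to 0.998 across genes, lowest for R172K. Idh1 stood at 11.89 ± 0.11 in R132C cells and 12.06 ± 0.099 in wild-type IDH1 cells on collagen, and Idh2 at 10.88 ± 0.085 in R172K cells and 10.82 ± 0.061 in wild-type IDH2 cells (SD, n = 2 each). In vector cells on collagen Idh1 stood at 12.11 ± 0.21 and Idh2 at 10.82 ± 0.017. No rise of either gene with its own construct was thus seen beyond the spread of replicates. The labels do not say whether these probe sets can read the introduced constructs.

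The first comparison was that of uncoated with collagen-coated plates in vector cells, where Afp and Hmga2 were lower and Igf2bp3 was higher on uncoated plates. In vector cells Afp read 9.40 and 9.09 on uncoated plates, against 10.64 and 10.63 on collagen. Both uncoated cultures lay more than log2 1 under both collagen cultures, and they were the lowest of all 14 arrays. The change was -1.39 (SE 0.211), or 2.63-fold lower, with a 95% interval of -1.85 to -0.94 and an adjusted p of 0.000294 by limma with Benjamini-Hochberg adjustment over all genes. In RNA of whole cultures, fewer cells that express a gene and less of its RNA in each cell cannot be told apart. In every plate comparison the coating also cannot be told apart from the up to 5 days of culture on uncoated plates. The same holds for any difference in handling between the plate types.

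Igf2bp3, which binds Igf2 messenger RNA among others, moved the other way. It read 11.02 and 10.80 on uncoated plates and 10.33 and 10.47 on collagen in vector cells. The groups did not overlap, and the difference was 0.51 (SE 0.139), or 1.43-fold higher (limma, adjusted p = 0.0136). All 3 other Igf2bp3 probe sets also rose, by 0.54, 0.68 and 0.89, where 25.8% of all 22690 probe sets were called. The call for the probe set used was lost without the first collagen array (0.44, adjusted p = 0.105 by limma) and without the first uncoated array (0.40, adjusted p = 0.132 by limma).

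Hmga2, with intensities of 7268 to 10774 over the 14 arrays, changed less. It read 12.83 and 13.06 in vector cells on uncoated plates and 13.32 and 13.33 on collagen. The groups did not overlap. The change of -0.38 (SE 0.0706), or 1.30-fold lower, had an adjusted p of 0.00120 by limma, and the other probe sets gave -0.50 and -0.46, both called. Tbx3 read 8.77 and 8.94 on uncoated plates and 9.26 and 9.08 on collagen, a difference of -0.31 (SE 0.173) that did not pass the test (limma, adjusted p = 0.216) although the groups did not overlap.

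In this comparison 3 of 7 members were called, 1 higher and 2 lower. Over all genes 29.3% were called, 15.1% higher and 14.2% lower, so a count of this size is near the background and says nothing about the group of genes as a whole. Arrays without overlap were seen for 2 members higher and 4 lower, and for 30.6% and 34.4% of all genes. The median change of the 7 members was -0.10, and that of all genes -0.02. The summed level of the hepatocyte markers was also higher on the uncoated arrays of vector cells (9.61 to 9.99, against 7.79 to 8.0 on collagen), as was that of the blood markers (7.20 to 7.60, against 6.66 to 7.10). On average Ttr (9.14 against 6.08) and Fgb (7.56 against 4.50) were higher, Alb differed less (4.93 against 4.61) and Apoa1 was lower (5.85 against 6.19). Among the blood markers Ptprc was higher (6.20 against 4.47) and Cd68 was not (5.60 against 5.67). The part of the hepatocyte and blood markers in these changes was not tested.

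**Figure D2:**
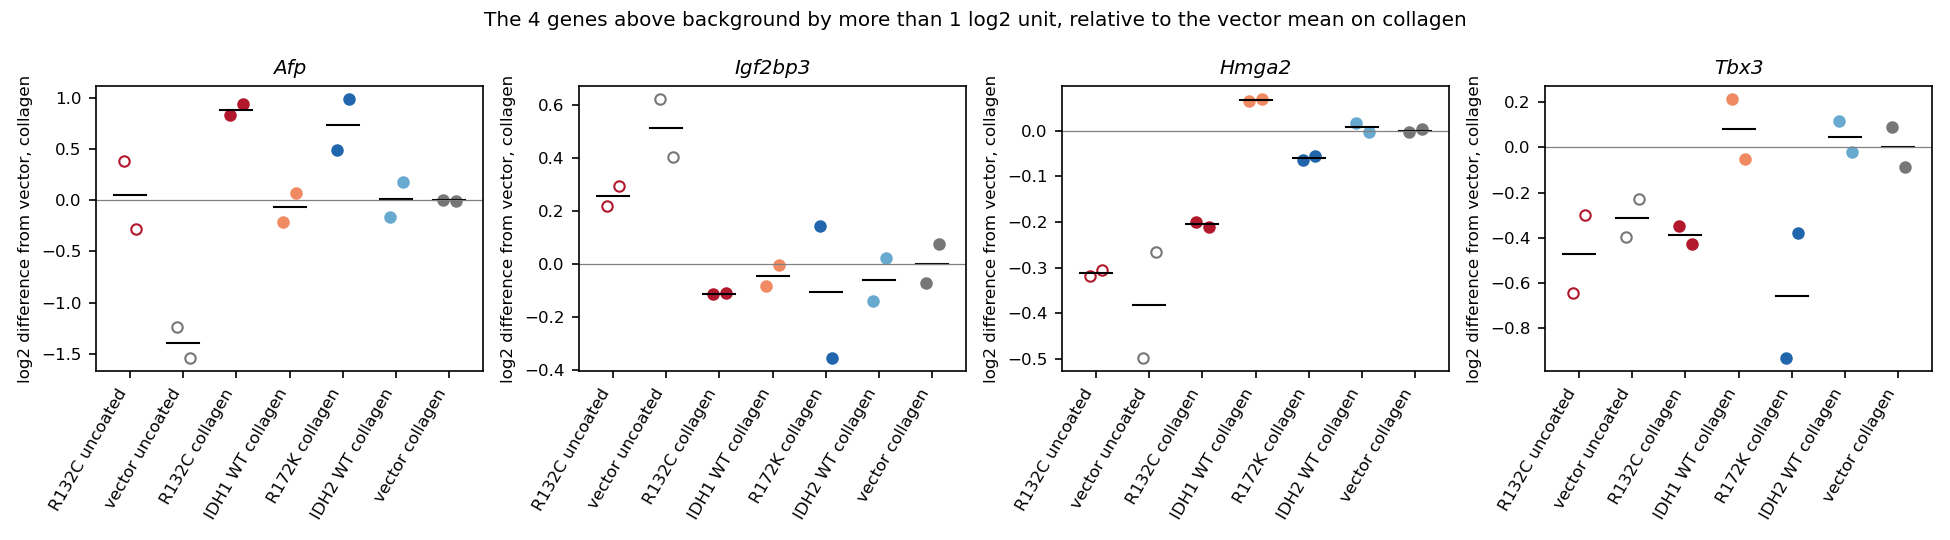
Log2 difference of each array from the mean of vector cells on collagen for the 4 genes well above background, 1 point per culture, bars at the group means, open points for uncoated plates; the vertical scales differ between panels. Vector cells on uncoated plates lie lowest for Afp and highest for Igf2bp3, and the R132C and R172K arrays on collagen lie above the other collagen arrays for Afp and under them for Hmga2 and Tbx3.

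The same plates were compared in R132C cells, and there Afp alone was called. In these cells Afp read 11.03 and 10.35 on uncoated plates and 11.47 and 11.58 on collagen. The groups did not overlap, though the uncoated cultures differed from each other by 0.67, the widest gap between replicates of Afp. The change was -0.83 (SE 0.211), or 1.78-fold lower (limma, adjusted p = 0.0109). It did not pass the test without the second uncoated array (-0.50, adjusted p = 0.148 by limma) or without the second collagen array (-0.78, adjusted p = 0.0719 by limma).

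Igf2bp3 in R132C cells read 10.62 and 10.69 on uncoated plates and 10.28 and 10.29 on collagen, with no overlap. The difference of 0.37 (SE 0.139) fell short of the threshold (limma, adjusted p = 0.0692), while 2 of its 3 other probe sets passed it at 0.35 and 0.51, where 23.1% of all probe sets were called. Hmga2 read 13.01 and 13.02 on uncoated plates and 13.13 and 13.12 on collagen, a difference of -0.11 (SE 0.0706, limma adjusted p = 0.311). Its other probe sets gave -0.28 each, with adjusted p of 0.0820 and 0.0527 by limma. Tbx3 read 8.53 and 8.87 on uncoated plates and 8.82 and 8.74 on collagen, and the groups overlapped.

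Thus 1 of 7 members was called, lower, where 25.9% of all genes were called, 13.6% higher and 12.3% lower. Arrays without overlap were seen for 1 member higher and 3 lower, and for 30.5% and 35.2% of all genes. The median change of the 7 members was -0.08, and that of all genes -0.03. The Igf2bp3 call came and went with arrays of another group: without the first R172K array its adjusted p was 0.0113 and without the second 0.0111 (limma), at the same change. The difference between the plate changes was tested in the same fit. It was 0.56 for Afp (SE 0.298, 95% interval -0.09 to 1.21, limma adjusted p = 0.9996), 0.27 for Hmga2 (SE 0.0998, 95% interval 0.06 to 0.49, limma adjusted p = 0.630) and -0.14 for Igf2bp3 (SE 0.196). The other Hmga2 probe sets gave 0.22 and 0.18, with 95% intervals that span 0. None of the 7 passed, where 0.25% of all genes did, so a different plate change in R132C and vector cells was not shown for any of them.

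The level reached on uncoated plates was then compared between R132C and vector cells. No wild-type IDH1 group was measured on uncoated plates, and the labels do not say which vector cultures received doxycycline. The mutation, the presence of an introduced IDH1 sequence and doxycycline therefore cannot be told apart here. Afp read 11.03 and 10.35 in R132C cells and 9.40 and 9.09 in vector cells. Both R132C cultures were higher than both vector cultures. The difference was 1.45 (SE 0.211), or 2.72-fold higher, with a 95% interval of 0.99 to 1.90 and an adjusted p of 0.00311 by limma. Afp was the single member called of 7, against 2.39% of all genes called, 0.896% higher and 1.49% lower. Over the alternatives tried its adjusted p lay between 0.000997 and 0.0361. The vector cultures on uncoated plates enter this comparison and the plate comparison in vector cells, so the 2 are not independent.

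On uncoated plates Igf2bp3 read 10.62 and 10.69 in R132C cells and 11.02 and 10.80 in vector cells. The groups did not overlap, and the difference of -0.26 (SE 0.139) did not pass (limma, adjusted p = 0.497). Hmga2 and Tbx3 overlapped between these groups, with differences of 0.07 (95% interval -0.08 to 0.22) and -0.16 (95% interval -0.53 to 0.22). Arrays without overlap were seen for 2 members higher and 2 lower, and for 21.3% and 25.7% of all genes. The summed hepatocyte markers were lower in R132C cells (8.71 to 8.76) than in vector cells (9.61 to 9.99) on these plates. On average Ttr (7.41 against 9.14) and Fgb (6.86 against 7.56) were lower in R132C cells, and Apoa1 was not (6.07 against 5.85). The part of these markers in the Afp difference was not tested.

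**Figure D3:**
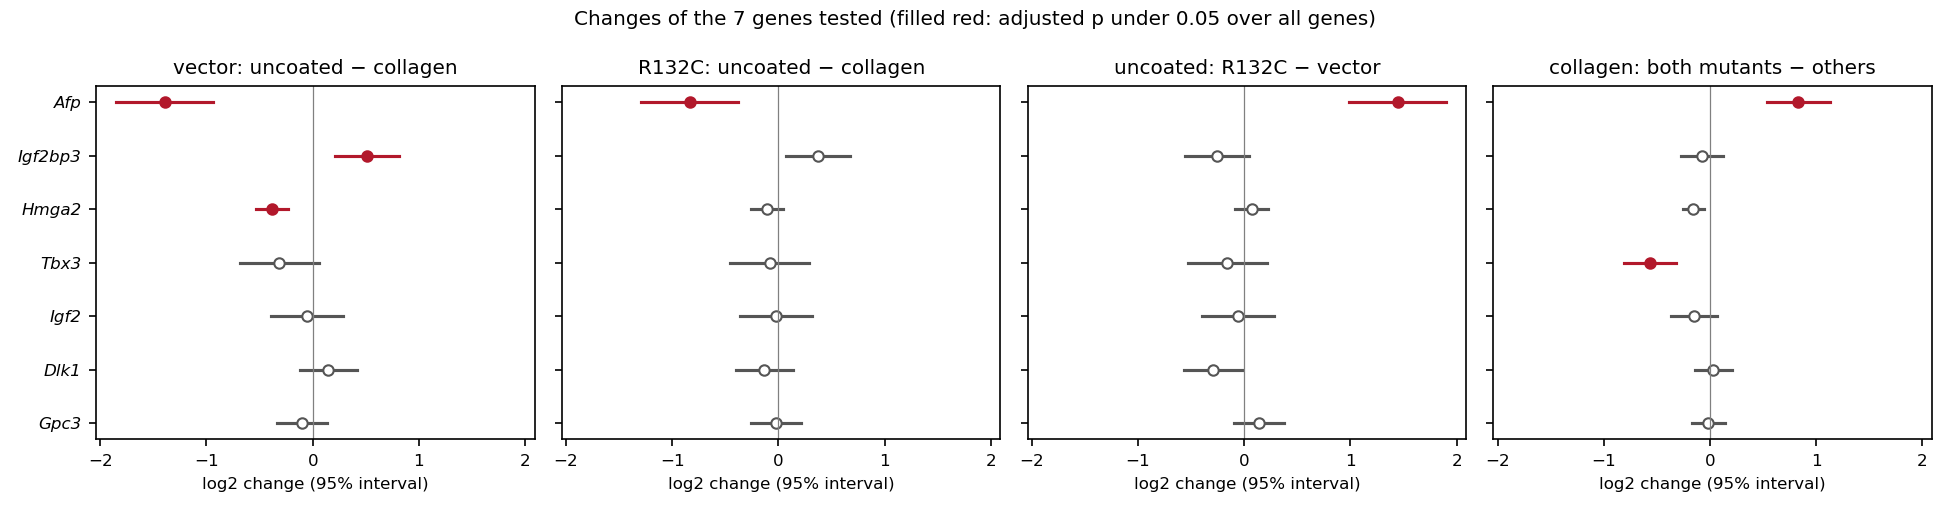
Log2 change with its 95% interval for the 7 genes tested, in 4 comparisons, filled red where the adjusted p over all genes was under 0.05. Afp is called in all 4, with changes of -1.39, -0.83, 1.45 and 0.83. Igf2, Dlk1 and Gpc3 are called in none. Of their intervals only that of Dlk1 for R132C against vector on uncoated plates (-0.57 to -0.02) excludes 0.

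On collagen the mutants were set against the wild-type forms, and Afp was higher and Tbx3 and Hmga2 were lower with a mutant on every array, though not past the threshold for either mutant alone. Afp read 11.47 and 11.58 in R132C cells against 10.43 and 10.71 in wild-type IDH1 cells. It read 11.13 and 11.63 in R172K cells against 10.48 and 10.82 in wild-type IDH2 cells. Neither pair of groups overlapped. The difference was 0.95 for R132C (SE 0.211, 95% interval 0.50 to 1.41, limma adjusted p = 0.184) and 0.73 for R172K (SE 0.211, 95% interval 0.27 to 1.19, limma adjusted p = 0.105).

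Tbx3 read 8.82 and 8.74 in R132C cells against 9.39 and 9.12 in wild-type IDH1 cells, a difference of -0.47 (SE 0.173, limma adjusted p = 0.514). It read 8.24 and 8.79 in R172K cells against 9.29 and 9.15 in wild-type IDH2 cells, a difference of -0.70 (SE 0.173, limma adjusted p = 0.0658) that passed with the replicate number as a block (limma adjusted p = 0.0391). Mutant and wild type did not overlap in either pair. The R172K cultures differed by 0.56, the widest gap between replicates of Tbx3, and without the second one the difference was -0.98 (adjusted p = 0.00640 by limma). Igf2 passed as well without that array, at -0.50 (adjusted p = 0.0338 by limma), on a level near background.

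Hmga2 read 13.13 and 13.12 in R132C cells against 13.39 and 13.40 in wild-type IDH1 cells. It read 13.26 and 13.27 in R172K cells against 13.34 and 13.32 in wild-type IDH2 cells. The groups did not overlap, and the differences of -0.27 (limma adjusted p = 0.270) and -0.07 (limma adjusted p = 0.658) did not pass. For R132C no member was called, where 0.0484% of all genes were. For R172K none was called either, where 1.73% of all genes were, 0.597% higher and 1.14% lower. Arrays without overlap were seen for 2 members higher and 3 lower with R132C, and for 22.1% and 20.4% of all genes. With R172K they were seen for 1 member higher and 3 lower, and for 14.5% and 26% of all genes. Gpc3, with group means under background, was among those higher with R132C (0.19) and those lower with R172K (-0.18). Igf2bp3 was among those lower with R132C (-0.07). The mutants' changes did not differ from each other past the threshold for any member, with 0.22 for Afp (95% interval -0.42 to 0.87) and 0.24 for Tbx3 (95% interval -0.30 to 0.77). In that comparison limma called 0 of all genes, with 653 at an unadjusted p under 0.05.

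Both mutants together were then compared with vector and both wild-type forms on collagen, 4 arrays against 6. For Afp the mutant arrays ran from 11.13 to 11.63 and the others from 10.43 to 10.82. Every mutant array was higher than every other array. The difference was 0.83 (SE 0.136), or 1.78-fold higher, with a 95% interval of 0.54 to 1.13 (limma, adjusted p = 0.00479). Over the alternatives tried the adjusted p lay between 0.00190 and 0.0305.

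For Tbx3 the mutant arrays ran from 8.24 to 8.82 and the others from 9.08 to 9.39. Every mutant array was lower. The difference was -0.56 (SE 0.112), or 1.48-fold lower, with a 95% interval of -0.81 to -0.32 (limma, adjusted p = 0.0109). Without the first R172K array, the lowest of all for Tbx3, it was -0.43 (adjusted p = 0.0378 by limma). Without the second R132C array it was -0.55 and did not pass (adjusted p = 0.0579 by limma). Averaged with the second Tbx3 probe set, which lay under background in all 7 groups and was not called, it was -0.26 (adjusted p = 0.149 by limma).

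Hmga2 ran from 13.12 to 13.27 on the mutant arrays and from 13.32 to 13.40 on the others, again without overlap at the probe set used. The difference of -0.16 (SE 0.0456), or 1.12-fold, just missed the threshold (limma, adjusted p = 0.0592) and passed it in 6 of 22 alternatives, the replicate block among them (limma adjusted p = 0.0437), with adjusted p from 0.0284 to 0.188 over all of them. The other Hmga2 probe sets gave -0.23 without overlap (limma adjusted p = 0.0876) and -0.14 with overlapping arrays (limma adjusted p = 0.274). Igf2bp3 overlapped, at -0.08 (95% interval -0.27 to 0.12), as did Igf2, Dlk1 and Gpc3. Altogether 2 of 7 members were called, 1 higher and 1 lower, where 6.58% of all genes were called, 2.11% higher and 4.48% lower. Groups without overlap were seen for 1 member higher and 2 lower, and for 3.46% and 6.19% of all genes.

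No member was called for either wild-type form against vector. On collagen, Afp differed by -0.07 with wild-type IDH1 (95% interval -0.52 to 0.39) and by 0.01 with wild-type IDH2 (95% interval -0.45 to 0.47). Limma called 0 genes in all (0% for each), with 128 and 116 at an unadjusted p under 0.05. For Hmga2, wild-type IDH1 read 13.39 and 13.40 against 13.32 and 13.33 with vector, a difference of 0.07 (95% interval -0.09 to 0.22). Arrays without overlap were seen for 1 member higher (8.77% of all genes) and 1 lower (14.4%) with wild-type IDH1, and for none with wild-type IDH2 (9.47% of all genes higher and 13.2% lower).

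Ordered by mean level, Afp was highest in R132C and R172K cells on collagen (11.52 ± 0.074 and 11.38 ± 0.36), which overlapped. R132C cells on uncoated plates (10.69 ± 0.48) and wild-type IDH2, vector and wild-type IDH1 cells on collagen (10.65 ± 0.24, 10.64 ± 0.0080 and 10.57 ± 0.20) followed, each overlapping its neighbour. Vector cells on uncoated plates were last at 9.24 ± 0.22 (SD, n = 2 in each group). Igf2bp3 was ordered by plate, with vector (10.91 ± 0.16) and R132C cells (10.66 ± 0.055) on uncoated plates above all 5 collagen groups, which lay within 10.29 to 10.40 and overlapped. Tbx3 fell into 2 sets, with wild-type IDH1, wild-type IDH2 and vector cells on collagen at 9.17 to 9.25 and the other 4 groups at 8.51 to 8.86, and neighbours overlapped within each set.

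**Figure D4:**
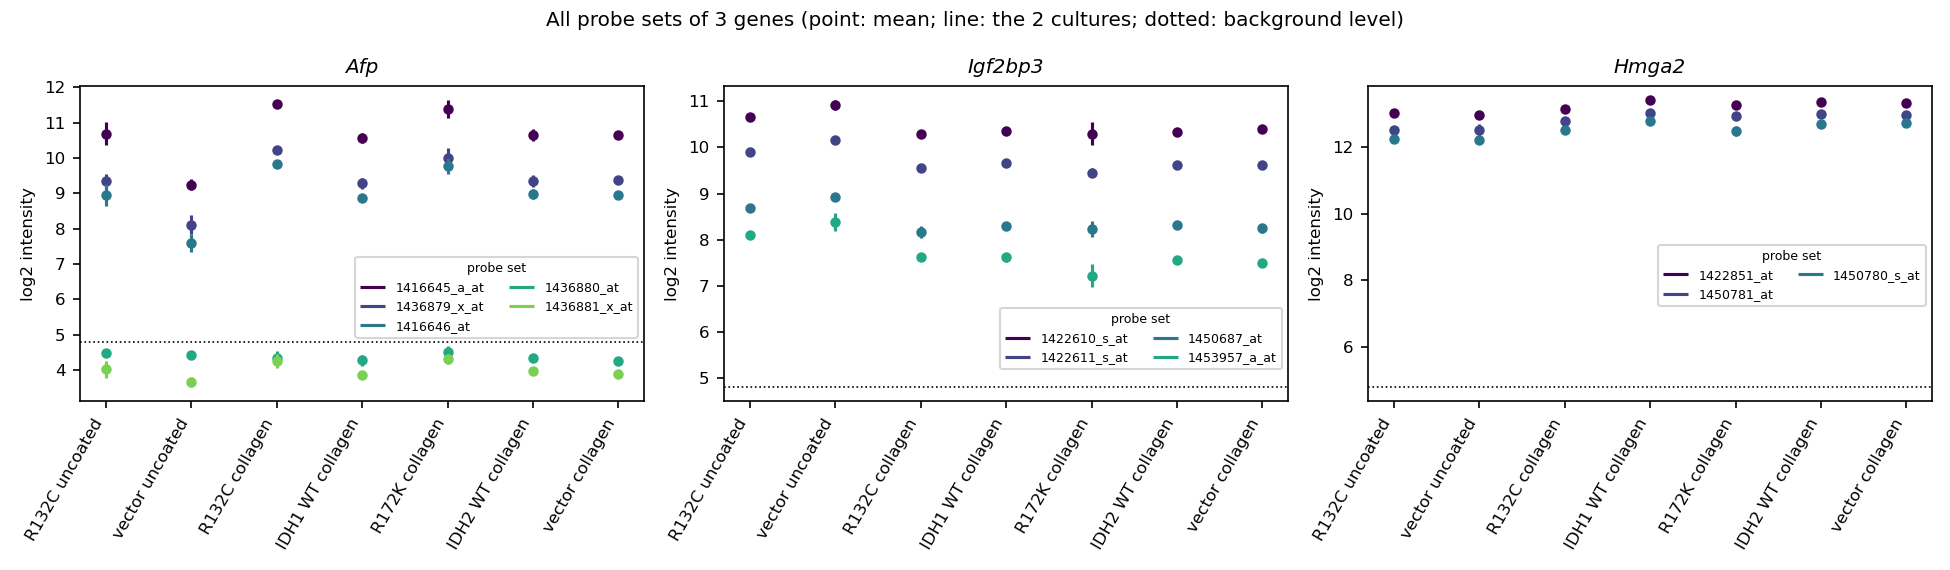
Log2 intensity of every probe set of Afp, Igf2bp3 and Hmga2 in the 7 groups, with points at the group means, lines joining the 2 cultures and a dotted line at the background level of 4.81. The 3 bright Afp probe sets follow one pattern and the 2 others lie under background, while all probe sets of Igf2bp3 and Hmga2 lie above it.

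The probe sets of a gene share the same RNA, so they check the probes and are no replicates. The 2 other bright Afp probe sets followed the one used across the 14 arrays (Pearson r of 0.996 and 0.993) and gave the same calls in all 10 comparisons. Over all probe sets 1.55% were called for R132C against vector on uncoated plates, 4.32% for both mutants and 1.02% for R172K. The remaining 2 had mean levels of 4.38 and 4.0, under background, and were called in none. Averaging all 5 lowered the Afp change to -0.82 for the plate in vector cells and to 0.89 for R132C against vector on uncoated plates, both still called. For Igf2bp3 the correlations were 0.940, 0.952 and 0.733 and for Hmga2 0.969 and 0.912.

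The genes whose pattern over the 14 arrays was most like that of Afp, among 6115 genes above the median level, were Car2, Thoc6 and Sec14l1. Pearson's r with Afp was 0.929 for Car2 (carbonic anhydrase 2), 0.926 for Thoc6 and 0.920 for Sec14l1. Car2 averaged 8.54 in R132C and 8.56 in R172K cells on collagen and 7.36 in vector cells on uncoated plates. These values describe arrays that share groups, and the genes were picked as the most alike of many.

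Among the measured factors that act on the Afp gene, none was called in the direction of Afp in any comparison where Afp was called. Of 9 measured on a list of 13 such regulators, 2 rose and none fell in vector cells on uncoated plates, where 15.1% of all genes rose and 14.2% fell, with a list median of 0.26 against -0.02 for all genes. Cebpa, a factor of hepatocyte maturation, read 8.84 and 9.07 on uncoated plates and 6.34 and 6.12 on collagen in vector cells, 6.63-fold higher (limma, adjusted p = 1.74e-06). In R132C cells Cebpa alone rose, by 1.95 (SE 0.204, limma adjusted p = 5.82e-05), where 13.6% of all genes rose. Zbtb20, a repressor of Afp after birth in mice that was singled out after its values were seen, had group means of 9.57 to 9.92 and was called in no comparison.

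Hnf4a, a master regulator of liver epithelium, was the list's single called gene for both mutants on collagen. Of all genes 4.48% were called lower there and 2.11% higher. It read 11.24 and 10.98 in R132C and 10.90 and 10.85 in R172K cells, against 11.46 to 11.61 on the 6 vector and wild-type arrays. The arrays did not overlap, and the difference was -0.55 (SE 0.0738, limma adjusted p = 0.00160). Afp was thus higher on the same 4 arrays on which Hnf4a was lower, and whether one bears on the other was not tested.

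Genes of insulin-like growth factor signalling, 15 of 15 measured, included 3 called for the plate in vector cells, 3 in R132C cells and 2 for both mutants, where 29.3%, 25.9% and 6.58% of all genes were called. In vector cells on uncoated plates Igf2r, the receptor that clears the Igf2 ligand, rose and Igfbp3 and Igfbp2, which bind the ligand, fell. Igf2r read 10.91 and 11.19 on uncoated plates and 9.85 and 10.01 on collagen, 2.17-fold higher (limma, adjusted p = 0.000332). Igfbp3 read 8.62 and 8.85 on uncoated plates and 10.48 and 10.15 on collagen, 2.99-fold lower (limma, adjusted p = 1.83e-05). In R132C cells Igf2r rose by 0.98 and Igfbp7 by 0.51, and Igfbp3 fell by 0.75. With both mutants on collagen the docking protein Irs1 was higher, by 0.38, and Igfbp3 lower, at -0.44 (limma, adjusted p = 0.00421 and 0.0266). The list medians were -0.04, 0.04 and -0.02 in these 3 comparisons, against -0.02, -0.03 and -0.02 for all genes.

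Of 13 listed genes around LIN28, let-7 and the Igf2bp and Hmga families, 8 were measured, and no let-7 microRNA was on the list. On uncoated plates 5 of the 8 fell and none rose in vector cells, and 4 fell and none rose in R132C cells. Of all genes 14.2% fell in vector cells and 12.3% in R132C cells. The list medians were -0.57 and -0.35, against -0.02 and -0.03 for all genes. Igf2bp1, the relative of Igf2bp3, read 8.43 and 8.56 on uncoated plates and 9.52 and 9.16 on collagen in vector cells, a fall where Igf2bp3 rose (limma, -0.84 with SE 0.136, adjusted p = 0.000471). The cyclin Ccnd2 and the growth factor-responsive Myc fell by 1.04 and 0.95 in the same cells. On uncoated plates Ccnd2 was higher in R132C cells, at 12.79 and 12.68, than in vector cells, at 12.08 and 11.98 (limma, difference 0.71, adjusted p = 0.00103).

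Of 19 measured imprinted genes, 4 rose and 1 fell in vector cells on uncoated plates and 3 rose and 2 fell in R132C cells, near the 29.3% and 25.9% called among all genes. Slc22a18 and Phlda2 lie in the same imprinted region as Igf2 and H19. Slc22a18 rose by 1.29 in each (SE 0.200) while Phlda2 fell by 0.70 and 0.78. The list medians were 0.05 and 0.03, against -0.02 and -0.03 for all genes. Mest, a maternally imprinted gene, was higher with both mutants on collagen, at 5.86 to 6.17 against 4.83 to 5.61 on the other arrays (limma, difference 0.86, adjusted p = 0.00481), at a level not far above background.

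Among 9 measured glypicans, heparan sulphatases and relatives of Dlk1, 2 rose and 1 fell in vector cells on uncoated plates and 4 rose and 2 fell in R132C cells, where 29.3% and 25.9% of all genes were called. The glypican Gpc6 rose by 0.68 and 0.66. The sulphatase Sulf2, which edits heparan sulphate chains, read 7.28 and 6.36 on uncoated plates and 8.80 and 8.78 on collagen in vector cells, 3.91-fold lower (limma, adjusted p = 8.81e-05). Dlk2, the closest relative of Dlk1, fell by 1.14 in R132C cells and was higher with both mutants on collagen, by 0.72, with overlapping arrays. The list medians were 0.04, 0.01 and 0.04 for the plate in vector cells, the plate in R132C cells and both mutants, against -0.02, -0.03 and -0.02 for all genes.

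Of 9 T-box genes and genes repressed by Tbx3, Cdkn2a and Cdh1 were lower with both mutants on collagen, where Tbx3 was lower too and 4.48% of all genes were called lower. Cdkn2a, which encodes cell cycle inhibitors and is repressed by Tbx3 in mouse cells, differed by -0.42 (SE 0.0779, limma adjusted p = 0.00723). The adhesion protein E-cadherin, Cdh1, differed by -0.34 (SE 0.0758, limma adjusted p = 0.0188), and none of the 9 rose. In R132C cells on uncoated plates Cdh1 and Cdkn2a rose, by 0.73 and 0.45, and in vector cells Cdh1 alone, by 0.37, where 13.6% and 15.1% of all genes rose. The list medians were -0.09 for both mutants, 0.13 for the plate in R132C cells and -0.06 for it in vector cells, against -0.02, -0.03 and -0.02 for all genes.

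Other fetal liver and oncofetal genes, 15 of 16 measured, included 5 that rose and 1 that fell in vector cells on uncoated plates and 3 that rose in R132C cells, with list medians of 0.09 and 0.02 against -0.02 and -0.03 for all genes. Of all genes 15.1% rose and 14.2% fell in vector cells, and 13.6% rose and 12.3% fell in R132C cells. Igdcc4, a surface protein of fetal liver, read 9.04 and 8.18 on uncoated plates and 5.35 and 5.52 on collagen in vector cells, 9.06-fold higher (limma, adjusted p = 1.44e-06). Epcam, an epithelial adhesion molecule of liver progenitors, read 11.19 and 11.21 on uncoated plates and 9.18 and 9.57 on collagen, 3.55-fold higher (limma, adjusted p = 3.82e-05). So within one pair of groups the oncofetal markers Afp and Epcam went opposite ways.

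On uncoated plates Epcam and Igdcc4 were lower in R132C cells than in vector cells, where Afp was higher. Of the 15 genes 3 were called lower and 0 higher there, against 1.49% and 0.896% of all genes. Epcam read 9.37 and 10.04 in R132C cells and 11.19 and 11.21 in vector cells, a difference of -1.49 (SE 0.207, limma adjusted p = 0.00218). Igdcc4 read 7.41 and 6.87 in R132C cells and 9.04 and 8.18 in vector cells, a difference of -1.47 (SE 0.231, limma adjusted p = 0.00472). On collagen, with both mutants, Epcam and the homeobox factor Hhex were lower, at -0.80 and -0.78, and Id3 was higher, by 0.48 (limma, adjusted p = 0.00509, 0.00107 and 0.00347). Of all genes 4.48% were called lower and 2.11% higher in that comparison.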

How the data were processed

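Expression was measured on 14 Affymetrix mouse arrays, 1 per culture. The deposited intensity values, made with RMA per the submitters' processing notes (version and settings not stated), ran from 5.84 to 26770 on a linear scale, and log2 was taken. Gene names came from the platform annotation, and probe sets with several symbols were left out of the gene table. limma 3.58.1 (R 4.3.3) was run with 1 mean per group on all arrays (lmFit, contrasts.fit, eBayes with an intensity trend), leaving 7 residual and 5.67 prior degrees of freedom. P-values were adjusted by Benjamini-Hochberg over 12393 genes in each of 10 comparisons and called under 0.05. The number of arrays limits the precision.

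The members, the 7 pathway lists and the markers were chosen with earlier results of these data known. All members are named. A list gives up to 4 called genes with the largest change per comparison, and where 1 or none was called its 2 brightest genes may stand in. For a member whose group means spanned log2 1, the 3 genes with the highest Pearson r were named. Simulated data for the plate in vector cells had 67 genes of 12393 set to change by log2 0.5, 67 by log2 1 and 66 by log2 2. The fit found 43.3%, 92.5% and 100% of them, with 11 false calls. In the data 29.3% of genes were called for that plate, and the adjusted p depends on this share. These rates therefore need not hold for the comparisons reported. Alternatives were other probe sets per gene, a filter at the 30th percentile, cyclic loess, median centring, no trend, the compared groups alone, a replicate block, and leaving out single arrays.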

Additional observations from a re-analysis of the deposited data

Results flagged for a closer look

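Id3, an inhibitor of differentiation factors listed among the fetal liver genes, had plate changes that differed between R132C and vector cells, by a test of the difference itself. In R132C cells it read 9.13 ± 0.073 on uncoated plates and 9.04 ± 0.023 on collagen, and in vector cells 9.79 ± 0.25 on uncoated plates and 8.62 ± 0.018 on collagen (SD, n = 2 each). The difference between the plate changes was -1.09 (SE 0.164, limma adjusted p = 0.0112), and Id3 was among 31 genes of 12393 called in that comparison. No explanation was tested.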

How the results depend on the processing

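Over 22 alternatives for each of 10 comparisons, 1499 values of single members kept their side of the threshold, 15 came to pass it and 6 ceased to, and none that passed changed direction. The number of members called stayed at 0 for the difference between plate changes, the difference between mutants and both wild-type forms against vector, and at 1 for R132C against vector on uncoated plates. For the plate in vector cells it was 3, and 2 to 3 with an array left out. For the plate in R132C cells it was 1, and 2 when probe sets of a gene were averaged or with the arrays of the compared groups alone, and 0 to 2 with an array left out. For R132C against wild-type IDH1 it was 0, and 1 (Afp, limma adjusted p = 0.0475) with the arrays of the compared groups alone. For R172K against wild-type IDH2 it was 0, 1 with the replicate number as a block (Tbx3, limma adjusted p = 0.0391), and 0 to 2 with an array left out. For both mutants it was 2, 1 when probe sets were averaged (Tbx3 lost), and 1 to 4 with an array left out, the 4 being without the second R172K array, where Igf2 and Hmga2 passed as well. The labels do not say what a replicate number shares between groups. Deviations of same-numbered cultures from their group means correlated at -0.04 to 0.49 over 21 pairs of groups, above 0.1 in 13. These were all 10 pairs of collagen groups (0.11 to 0.49), the pair of uncoated groups (0.26) and 2 of the 10 pairs across plates, which is a hint of pairing within a plate type from the data and not from the design. The block moved the count of all genes called from 296 to 505 for R132C against vector on uncoated plates, from 6 to 49 for R132C against wild-type IDH1, from 215 to 480 for R172K, from 816 to 1258 for both mutants and from 31 to 54 for the difference between plate changes. Over all alternatives these counts ran from 71 to 505, 0 to 49, 14 to 2332, 274 to 2439 and 11 to 79, and for the plate from 2293 to 5861 in vector cells (3628 as reported) and from 1660 to 5251 in R132C cells (3215 as reported), the highest of these 2 being counts of probe sets. For the difference between mutants they ran from 0 to 85. Another background correction was not run, because it needs the probe values. A group left with 1 array was taken to have the spread of the other groups. Signals near background limit what can be said of Igf2, H19, Dlk1 and Gpc3.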
